A study of Danio rerio with 12 samples.

Results

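The proteasome genes of the adult zebrafish heart were examined in ventricles of wild-type and mvp knockout animals after ventricle resection or sham surgery. Members were all genes whose symbol begins with psma to psmg and a digit and that had at least 10 counts in 3 or more libraries. Of 32520 genes listed, 59 had such a symbol and 57 passed. The 2 that did not pass were psmb11, with 0 counts in all libraries, and psmb11b, with no more than 1 count in any. The members comprised 7 inducible genes and 50 others, here called constitutive. The inducible genes were the beta subunits psmb8a, psmb9a, psmb10, psmb12 and psmb13a and the activator subunits psme1 and psme2. The constitutive genes were 10 of the alpha ring, 7 of the beta ring, 7 base ATPases, 14 other subunits of the regulatory particle, 6 assembly chaperones, 3 activators, 1 inhibitor, and psmc3ip and psme3ip1, which match by name but encode proteins that are not subunits.

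The proteasome is the protease complex that degrades ubiquitin-tagged proteins in the cytosol and nucleus. Its barrel is built of alpha rings at the ends, which gate entry, and beta rings in the middle, which hold the catalytic subunits Psmb5, Psmb6 and Psmb7. A regulatory particle with a ring of ATPases binds and unfolds the substrates. In leukocytes, and in other cells exposed to interferon-gamma, Psmb8, Psmb9 and Psmb10 take the places of Psmb5, Psmb6 and Psmb7 in newly built complexes, the immunoproteasome, whose peptides are loaded onto MHC class I molecules. The subunits psmb12 and psmb13a belong to the same inducible family in fish, and in mammals the Psme1 and Psme2 proteins form the PA28 cap, which is induced by interferon-gamma as well.

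The 4 groups were mvp knockout ventricles at 7 days post amputation (mvp-7dpa), mvp knockout sham (mvp-sham), wild-type at 7 days post amputation (WT-7dpa) and wild-type sham (WT-sham), with 3 libraries each. The methods of the study place both genotypes on the AB background. They describe the knockout as 1 allele, made with CRISPR-Cas9, that removes the mvp coding region. Ventricle tissue below the plane of surgery was taken from adult fish. The methods name a number of hearts for the RNA, but not whether it is the total over all groups. Which hearts went into which library is not given in the sources used here. The libraries of a group may therefore not be separate animals. The p-values measure the spread between libraries, which may be technical. The libraries held 21356163 to 26684651 counts. Levels are given as CPM, read counts scaled to library size after correction by the trimmed mean of M values (TMM), and a floor of 3 counts was equal to 0.112 to 0.14 CPM before that correction. A gene was called where the adjusted p of edgeR's quasi-likelihood test (Benjamini-Hochberg, over all genes tested) was under 0.05. The targeted gene mvp had 429 to 475 counts in mvp-7dpa, 91 to 108 in mvp-sham, 3444 to 5405 in WT-7dpa and 3346 to 4384 in WT-sham libraries. The list of cardiomyocyte markers, which includes myl7 and actc1a, had a summed level of 44200 to 45000 CPM in mvp-7dpa, 56700 to 59900 CPM in mvp-sham, 38400 to 47800 CPM in WT-7dpa and 53200 to 61800 CPM in WT-sham libraries, lower in injured than in sham libraries of both genotypes. Its genes did not all move that way. Of 11 tested, 27.3% were called higher and 63.6% lower in WT-7dpa, against 31.6% and 27.8% of all genes. In mvp-7dpa 0% were called higher and 54.5% lower, against 12.9% and 13.4%. nppb was at 1080, 1030 and 1190 CPM in mvp-7dpa and at 956, 911 and 949 CPM in mvp-sham libraries. In the wild-type it was at 724, 953 and 1020 CPM in WT-7dpa and at 71, 76.3 and 64.7 CPM in WT-sham libraries. For this gene the knockout sham libraries were thus within the range of WT-7dpa and far above WT-sham. The cause of this difference between the sham groups was not tested. Epicardium and fibroblast markers were higher in injured libraries, with sums of 910 to 920 CPM in mvp-7dpa, 330 to 346 CPM in mvp-sham, 739 to 1220 CPM in WT-7dpa and 178 to 193 CPM in WT-sham libraries. Of 4 liver genes, fabp10a and fgb had at most 4 counts and ambp at most 1.02 CPM, whereas tfa, which encodes transferrin, was at 26.7 to 293 CPM and was higher in injured than in sham libraries of both genotypes.

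WT-7dpa replicate 1 stood apart from the other libraries of its group. The chi-square per degree of freedom was 84.1 and 86.9 between it and replicates 2 and 3, against 2.12 to 9.8 for the other replicate pairs of all groups. Its erythrocyte markers summed to 633 CPM, against 209 and 217 CPM in replicates 2 and 3. These sums were 697 to 750 CPM in mvp-7dpa, 325 to 342 CPM in mvp-sham and 183 to 233 CPM in WT-sham libraries. Replicate 1 was thus nearer to mvp-7dpa, and replicates 2 and 3 were within the WT-sham range. Its epicardium and fibroblast markers summed to 1220 CPM, against 761 and 739 CPM, with 910 to 920 CPM in mvp-7dpa between them. Which of the 3 libraries is atypical was not tested. The part of these cell types in the levels of the proteasome genes was not tested. Replicate 1 is used in all values below unless stated. A fit without it kept all calls of members and added 8 in the wild-type after injury, 12 in the knockout after injury, 13 between the sham groups, 17 between the injured groups and 17 for the interaction. The 2 libraries then left in WT-7dpa had the lowest chi-square per degree of freedom of all pairs (2.12). Fits without replicate 2 or 3 instead lost 3 and 3 of 35 calls in the wild-type after injury. They lost 7 and 6 of 24 between the injured groups and 6 and 7 of 20 for the interaction. Calls added without replicate 1 are given beside the inducible genes, the catalytic subunits and other genes whose value in that comparison is printed, and counts by role are those of the full data.

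Of the 7 inducible genes, 6 rose in the injured wild-type heart, where 31.6% of all genes were called higher. psmb8a, the inducible counterpart of psmb5, was at 15.4, 44.2 and 40.9 CPM in WT-7dpa and at 8.002, 10.9 and 7.41 CPM in WT-sham libraries. Every injured library was above every sham library, as was the case for 30.8% of all genes. Replicate 1 lay nearer to the sham range than replicates 2 and 3. The log2 fold change was 1.92 (SE 0.30, edgeR adjusted p = 0.000115), and 2.27 without replicate 1.

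psmb9a, the inducible counterpart of psmb6, had the largest log2 fold change of the 7. It was at 4.37, 11.1 and 12.5 CPM in WT-7dpa and at 2.36, 1.98 and 1.96 CPM in WT-sham libraries, a log2 fold change of 2.15 (SE 0.32, edgeR adjusted p = 7.73e-05). The groups did not overlap. psmb12, a fish subunit of the beta-1 type, was at 14.6, 37.3 and 38.8 CPM in WT-7dpa and at 11.9, 12.3 and 8.75 CPM in WT-sham libraries (log2 fold change 1.46, SE 0.28, edgeR adjusted p = 0.000581). psmb13a, a fish subunit of the beta-2 type, was at 3.84, 9.28 and 8.79 CPM in WT-7dpa and at 3.12, 2.77 and 2.73 CPM in WT-sham libraries (log2 fold change 1.35, SE 0.26, edgeR adjusted p = 0.00065). For both genes replicate 1 was above the highest sham library by less than replicates 2 and 3 were.

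The activator pair followed the same order. psme1 was at 19.1, 44.5 and 41.6 CPM in WT-7dpa and at 17.2, 15.7 and 13.6 CPM in WT-sham libraries, a log2 fold change of 1.18 (SE 0.23, edgeR adjusted p = 0.000679). psme2 was at 54.1, 81.4 and 86.4 CPM in WT-7dpa and at 39.5, 40.2 and 38.5 CPM in WT-sham libraries, a log2 fold change of 0.91 (SE 0.14, edgeR adjusted p = 7.81e-05). Neither gene overlapped between the groups.

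The exception was psmb10, the inducible counterpart of psmb7. It was at 11.1, 25.2 and 24.6 CPM in WT-7dpa and at 21.6, 24.8 and 18.4 CPM in WT-sham libraries, with a log2 fold change of -0.09 (SE 0.23, edgeR adjusted p = 0.746). Replicate 1 was below all sham libraries, and replicates 2 and 3 were at or just above the top of the sham range. Without replicate 1 the log2 fold change was 0.21 (edgeR adjusted p = 0.0501). Its sign changed in 2 of the 12 fits that left out 1 library, including this one.

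**Figure D1:**
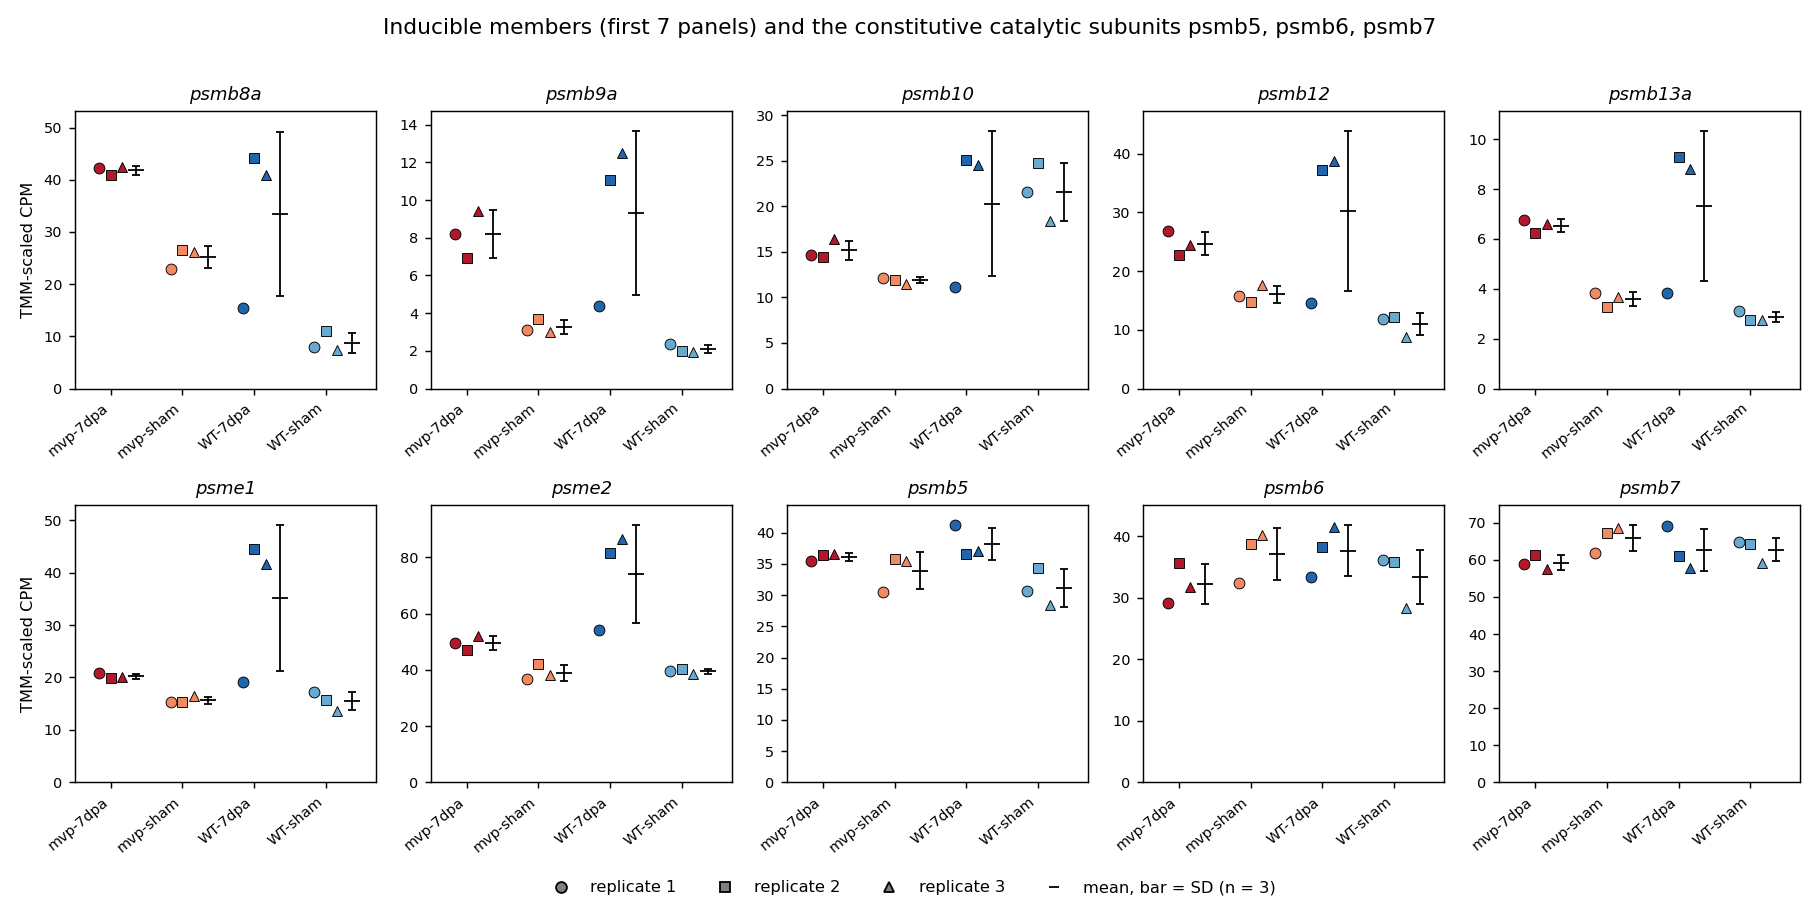
Level of the 7 inducible members and of psmb5, psmb6 and psmb7 in each library, in TMM-scaled CPM, by group; symbols are replicates and bars give the mean and SD (n = 3). Replicates 2 and 3 of WT-7dpa stand above replicate 1 for all 7 inducible genes, for example psmb8a at 44.2 and 40.9 against 15.4 CPM, while psmb5 stays between 28.4 and 41.2 CPM in all libraries.

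In the mvp knockout heart all 7 inducible genes had positive log2 fold changes after injury, of which 2 passed the test, where 12.9% of all genes were called higher. psmb9a was at 8.22, 6.93 and 9.45 CPM in mvp-7dpa and at 3.13, 3.69 and 3.01 CPM in mvp-sham libraries (log2 fold change 1.32, SE 0.31, edgeR adjusted p = 0.00633). psmb13a was at 6.75, 6.23 and 6.58 CPM in mvp-7dpa and at 3.85, 3.28 and 3.65 CPM in mvp-sham libraries (log2 fold change 0.86, SE 0.26, edgeR adjusted p = 0.0256), a call that was lost without any 1 of these 6 libraries. psmb8a was at 42.2, 40.9 and 42.4 CPM in mvp-7dpa and at 22.8, 26.5 and 26.2 CPM in mvp-sham libraries, with a log2 fold change of 0.73 (SE 0.28, edgeR adjusted p = 0.0709). Its groups were far apart for the spread within them, but the fit shares 1 estimate of the spread among the 4 groups, to which WT-7dpa replicate 1 contributes.

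The remaining inducible genes showed the same direction with smaller differences. psmb12 was at 26.8, 22.8 and 24.5 CPM in mvp-7dpa and at 15.8, 14.7 and 17.6 CPM in mvp-sham libraries, psmb10 at 14.7, 14.4 and 16.4 CPM and at 12.2, 11.97 and 11.5 CPM, psme1 at 20.8, 19.97 and 20.03 CPM and at 15.3, 15.3 and 16.5 CPM, and psme2 at 49.5, 47.2 and 52.1 CPM and at 36.8, 42.1 and 38.0 CPM, in the same order of groups. Their log2 fold changes were 0.62 for psmb12, 0.35 for psmb10, 0.37 for psme1 and 0.35 for psme2, with edgeR adjusted p-values of 0.0773 to 0.3. For all 7 the injured knockout libraries lay above the sham knockout libraries, as they did for 26.3% of all genes (30.8% in the wild-type). In a fit without WT-7dpa replicate 1, all 7 inducible genes were called higher in mvp-7dpa, with log2 fold changes of 0.34 to 1.32, where 20.8% of all genes were called higher.

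The response to injury was compared between the genotypes through the interaction, the log2 fold change in the knockout minus that in the wild-type. It was below 0 for 6 of the 7 inducible genes and, where 19.9% of all genes were called below 0, passed the test for psmb8a (-1.19, SE 0.41, edgeR adjusted p = 0.0366) and psme2 (-0.56, SE 0.19, edgeR adjusted p = 0.0362). For psmb9a it was -0.83 (SE 0.44, edgeR adjusted p = 0.165), for psmb12 -0.84 (SE 0.39, edgeR adjusted p = 0.111) and for psme1 -0.81 (SE 0.33, edgeR adjusted p = 0.0703). For psmb13a it was -0.49 and for psmb10 0.45, with edgeR adjusted p-values of 0.324 and 0.314. Without WT-7dpa replicate 1, 6 of the 7 were called lower, all except psmb10, where 28% of all genes were called lower. The call of psmb8a was lost in 10 and that of psme2 in 11 of the 12 fits that left out 1 library.

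Between the sham groups 1 inducible gene was higher and 1 was lower in the knockout, where 25.3% and 24.2% of all genes were called. psmb8a was at 22.8, 26.5 and 26.2 CPM in mvp-sham and at 8.002, 10.9 and 7.41 CPM in WT-sham libraries, a log2 fold change of 1.51 (SE 0.30, edgeR adjusted p = 0.00104). psmb10 was at 12.2, 11.97 and 11.5 CPM in mvp-sham and at 21.6, 24.8 and 18.4 CPM in WT-sham libraries, and fell by 0.86 on the log2 scale (SE 0.24, edgeR adjusted p = 0.00825). The 2 genes thus differed in opposite directions. psmb12 and psmb9a had log2 fold changes of 0.55 and 0.64, which did not pass, but did in the fit without WT-7dpa replicate 1 and in a fit of the sham groups alone. The fit without WT-7dpa replicate 1 called 29.6% of all genes higher in mvp-sham. psmb13a had a log2 fold change of 0.33 that did not pass, and psme1 and psme2 had log2 fold changes of 0.02 and -0.02.

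At 7dpa the knockout was lower than the wild-type for both activator genes, where 10.6% of all genes were called lower. psme1 was at 20.8, 19.97 and 20.03 CPM in mvp-7dpa and at 19.1, 44.5 and 41.6 CPM in WT-7dpa libraries (log2 fold change -0.79, SE 0.22, edgeR adjusted p = 0.026). psme2 was at 49.5, 47.2 and 52.1 CPM in mvp-7dpa and at 54.1, 81.4 and 86.4 CPM in WT-7dpa libraries (log2 fold change -0.58, SE 0.13, edgeR adjusted p = 0.00934). Replicate 1 of WT-7dpa lay below all mvp-7dpa libraries for psme1 and just above them for psme2. Both calls were lost in a fit of these 2 groups alone (edgeR adjusted p = 0.133 and 0.0796), and that of psme1 also in 5 of the 12 fits that left out 1 library. The 5 inducible beta subunits did not pass, with log2 fold changes of -0.42 for psmb10 to 0.32 for psmb8a. Without replicate 1, psmb10, psmb12, psmb13a and psmb9a were called lower in mvp-7dpa as well, with log2 fold changes of -0.74, -0.65, -0.49 and -0.55, and psmb8a was at -0.05. That fit called 20.2% of all genes lower.

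Markers of leukocytes, which express inducible subunits in the absence of injury, differed between the groups as well. The list of 7 leukocyte genes had a summed level of 761 to 792 CPM in mvp-7dpa, 416 to 450 CPM in mvp-sham, 768, 1280 and 1320 CPM in WT-7dpa and 220 to 235 CPM in WT-sham libraries, and none of the 7 was at 0 in any library. All 7 were called higher in WT-7dpa than in WT-sham, against 31.6% of all genes. All 7 were also called higher in mvp-7dpa than in mvp-sham, against 12.9%. Of the 7, 5 (71.4%) were called higher in mvp-sham than in WT-sham, against 25.3% of all genes. A further comparison called 4 (57.1%) lower in mvp-7dpa than in WT-7dpa, against 10.6%. The interaction was called below 0 for all 7, against 19.9% of all genes. Between the sham groups, where the summed leukocyte markers were higher in the knockout, the inducible genes were mixed. psmb8a was higher (log2 fold change 1.51), and psmb9a, psmb12 and psmb13a had log2 fold changes of 0.64, 0.55 and 0.33 that did not pass. psmb10 was lower (-0.86), and psme1 and psme2 had log2 fold changes near 0. The part of leukocytes in the levels of the inducible genes was not tested. In these bulk samples more cells of a type and more RNA per cell cannot be told apart.

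socs1b, a feedback inhibitor of cytokine signalling, was at 0.314, 6.91 and 7.22 CPM in WT-7dpa and at no more than 0.531 CPM in all libraries of the other groups. Only replicates 2 and 3 of WT-7dpa were high for this gene, which is induced by interferons. The interferon-gamma gene ifng1 had 10 and 9 counts in replicates 2 and 3 and at most 2 counts in any other library. Both genes were chosen after their values were seen, from the list of antigen presentation and interferon-gamma genes counted below. Other genes of that list were mixed. stat2 and tap2a showed the same split of the WT-7dpa replicates, and jak2a and mhc1zca did not. The part of interferon signalling in the levels of the proteasome genes was not tested.

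A group of 4 inducible genes are neighbours. In RefSeq's models of the GRCz12tu assembly, psmb13a, psmb8a, psmb12 and psmb9a follow each other without another protein-coding gene in between, flanked by the MHC class I gene mhc1uba and the tapasin genes tapbp.1 and tapbp.2 on one side and the peptide transporter gene tap2a on the other. The models of psmb8a and psmb13a overlap each other and those of psmb12 and psmb9a, so reads could have been lost or shared among the 4, and their separate levels are uncertain. The model of psmb13a also overlaps that of tap2a. psmb10, psme1 and psme2 are not part of the cluster, and the models of psmb10 and psme2 each overlap another gene's. The same holds for the constitutive members psme3, psmb1, psmd1, psmd6, psmd7, psmd10, psmg1 and psmc3ip. It also holds for both psmd2 genes, which overlap the same gene, alp3. The levels of these genes given below have the same limit.

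The neighbouring class I gene differed between the sham groups by more than psmb8a did. mhc1uba, which encodes an MHC class I heavy chain, was at 523, 507 and 520 CPM in mvp-7dpa, 307, 310 and 299 CPM in mvp-sham, 55.8, 208 and 210 CPM in WT-7dpa and 6.76, 7.59 and 6.69 CPM in WT-sham libraries. Between sham groups its log2 fold change was 5.44 (SE 0.41, edgeR adjusted p = 2.17e-07), against 1.51 for psmb8a. mhc1zda, a class I gene on another chromosome, was at 10.2, 8.37 and 8.54 CPM in mvp-7dpa, 0.871, 1.16 and 0.925 CPM in mvp-sham, 0.488, 2.28 and 2.54 CPM in WT-7dpa and 7.35, 8.47 and 7.87 CPM in WT-sham libraries. It was therefore high in WT-sham and mvp-7dpa and low in the other groups, an order that follows neither genotype nor injury. Zebrafish carry different sets of class I genes on different haplotypes, the reads were aligned to 1 reference genome, and the haplotypes of these animals are not given in the sources used here, so that haplotype and group cannot be told apart for mhc1uba and the psmb genes beside it.

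The ratio of an inducible catalytic subunit to its constitutive counterpart within 1 library does not depend on the scaling of libraries. Since gene lengths were not used, only differences of the ratio between libraries are read. The psmb8a/psmb5 ratio was 1.19, 1.12 and 1.16 in mvp-7dpa and 0.748, 0.743 and 0.739 in mvp-sham libraries, and it was 0.374, 1.21 and 1.11 in WT-7dpa and 0.26, 0.318 and 0.261 in WT-sham libraries. The injured libraries were above the sham libraries in both genotypes, and the knockout sham libraries were above the wild-type sham libraries, by 1.41 on the log2 scale.

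The psmb9a/psmb6 ratio showed the same order after injury. It was 0.282, 0.195 and 0.298 in mvp-7dpa and 0.0968, 0.0953 and 0.0747 in mvp-sham libraries, and 0.131, 0.29 and 0.301 in WT-7dpa and 0.0656, 0.0552 and 0.0691 in WT-sham libraries. The injured and sham libraries did not overlap in either genotype, with mean log2 differences of 1.51 for the knockout and 1.83 for the wild-type. The psmb10/psmb7 ratio was 0.25, 0.235 and 0.286 in mvp-7dpa and 0.196, 0.178 and 0.168 in mvp-sham libraries, and 0.161, 0.411 and 0.425 in WT-7dpa and 0.333, 0.387 and 0.311 in WT-sham libraries. The groups were separate in the knockout and overlapped in the wild-type, where replicate 1 was the lowest of all 12 libraries.

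**Figure D2:**
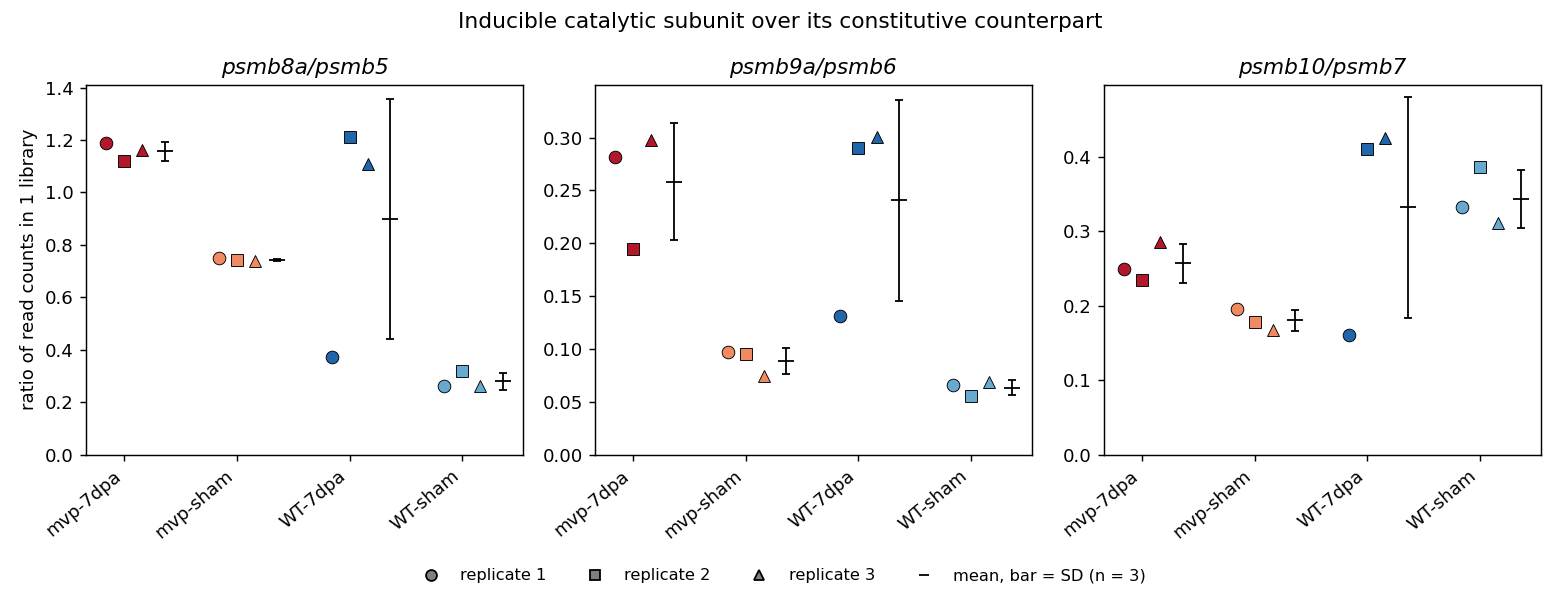
Ratio of read counts of an inducible catalytic subunit to its constitutive counterpart in each library, by group; symbols are replicates and bars give the mean and SD (n = 3). For psmb8a/psmb5 the mvp-sham libraries, at 0.739 to 0.748, stand between mvp-7dpa, at 1.12 to 1.19, and WT-sham, at 0.26 to 0.318, while WT-7dpa spans 0.374 to 1.21.

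Of the constitutive catalytic subunits, psmb5 alone was called, in 1 comparison. psmb5, which carries the chymotrypsin-like activity, was at 41.2, 36.6 and 37.0 CPM in WT-7dpa and at 30.7, 34.4 and 28.4 CPM in WT-sham libraries, a log2 fold change of 0.30 (SE 0.088, edgeR adjusted p = 0.0112) that was no longer called without WT-sham replicate 3. psmb6 and psmb7, which carry the caspase-like and trypsin-like activities, had log2 fold changes of 0.17 and 0.00 in the wild-type and were not called in any of the 5 comparisons. Without WT-7dpa replicate 1, psmb6 was called in the wild-type after injury (0.27, edgeR adjusted p = 0.0201), between the injured groups (-0.33, edgeR adjusted p = 0.00907) and for the interaction (-0.48, edgeR adjusted p = 0.0045). In the knockout after injury the 3 genes had log2 fold changes of 0.09, -0.21 and -0.15, and none was called, though psmb7 was without WT-7dpa replicate 1 (-0.16, edgeR adjusted p = 0.0315).

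Across all members, 31 of 57 (54.4%) were called higher and 4 (7.02%) lower in WT-7dpa than in WT-sham, against 31.6% and 27.8% (59.4% in either direction) of the 16604 genes tested. Of the constitutive members 25 rose and 4 fell, with a median log2 fold change of 0.21, against 1.35 for the 7 inducible members and 0.01 for all genes. Leaving out WT-7dpa replicate 1 gave 39 called higher, where 35.2% of all genes were. In the knockout 4 of 57 members (7.02%) were called higher and 8 (14%) lower after injury, against 12.9% and 13.4% of all genes (26.3% in either direction), so the share called higher was below that of all genes and the share called lower was near it. The 8 that fell were all constitutive, and the constitutive median was -0.02. Without WT-7dpa replicate 1, 12 of the 57 members were called in each direction in the knockout, near the 20.8% and 20.4% of all genes called higher and lower in that fit.

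The combined counts of the members took 0.257% to 0.263% of all counts in mvp-7dpa, 0.215% to 0.222% in mvp-sham, 0.274%, 0.333% and 0.339% in WT-7dpa and 0.199% to 0.206% in WT-sham libraries. The 7 inducible genes made up 6.72% to 7.23% of the member counts in mvp-7dpa, 4.65% to 4.89% in mvp-sham, 4.87%, 8.9% and 8.86% in WT-7dpa and 4.12% to 4.5% in WT-sham libraries. Injured libraries were above sham libraries of the same genotype on both measures. The first measure is a share of counts before the TMM correction. TMM factors were 1.094 to 1.102 in mvp-7dpa and 0.9019 to 0.9117 in mvp-sham libraries. They were 1.087 to 1.185 in WT-7dpa and 0.8537 to 0.8978 in WT-sham libraries. The same share therefore stands for a lower CPM in injured than in sham libraries, and the first measure cannot be set beside the CPM levels.

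**Figure D3:**
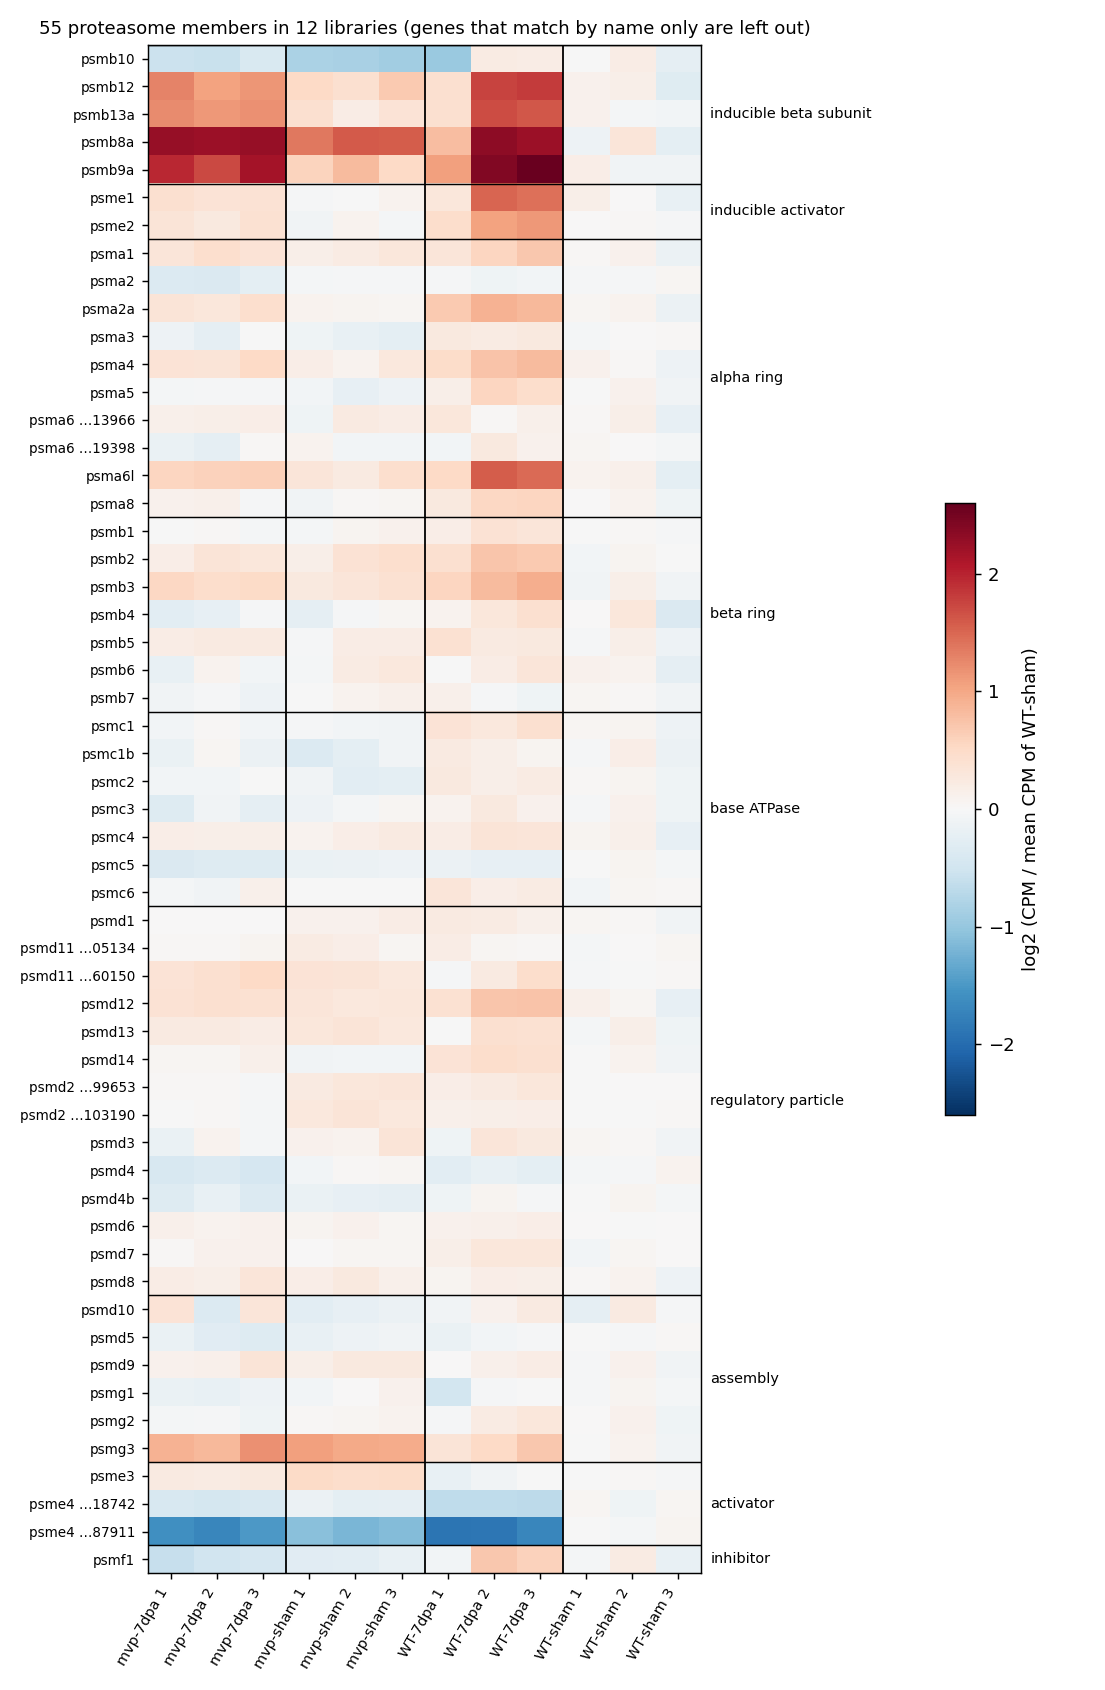
Level of 55 members in each of the 12 libraries, as log2 of CPM over the mean CPM of WT-sham; rows are ordered by role, psmc3ip and psme3ip1 are left out, and 2 genes of 1 symbol are told apart by the end of the Ensembl identifier. The darkest blue row is psme4 ENSDARG00000087911, the darkest red cells are in the inducible rows, and WT-7dpa replicate 1 is paler than replicates 2 and 3 for psmb8a, psmb9a, psmb12, psmb13a, psme1, psme2 and psma6l.

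In the alpha ring, whose subunits form the gated entry, 7 of 10 genes rose in WT-7dpa and none fell. Counts by role in WT-7dpa, here and below, stand beside 31.6% of all genes called higher and 27.8% called lower, and those in mvp-7dpa beside 12.9% and 13.4%. Counts of called interactions by role stand beside 15.2% of all genes called above 0 and 19.9% called below 0. The largest log2 fold change was that of psma6l, a paralogue of psma6, which was at 17.5, 36.2 and 33.8 CPM in WT-7dpa and at 12.9, 13.4 and 10.3 CPM in WT-sham libraries (1.26, SE 0.21, edgeR adjusted p = 2e-04). It shared the split of the replicates with the inducible genes. psma2a was at 59.1, 68.4 and 66.2 CPM in WT-7dpa and at 38.0, 38.9 and 33.1 CPM in WT-sham libraries (log2 fold change 0.82, SE 0.080, edgeR adjusted p = 2.03e-06), with replicate 1 close to the others. These genes and those named in the next paragraphs apart from psme4 ENSDARG00000087911, psmg3 and psmc3ip were chosen after their values were seen.

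In the knockout 1 alpha gene rose and 1 fell after injury. psma2a was at 46.2, 45.2 and 49.9 CPM in mvp-7dpa and at 39.3, 38.6 and 38.1 CPM in mvp-sham libraries (log2 fold change 0.29, SE 0.080, edgeR adjusted p = 0.0185). psma2 was at 49.3, 48.0 and 52.4 CPM in mvp-7dpa and at 60.8, 61.4 and 61.4 CPM in mvp-sham libraries (log2 fold change -0.30, SE 0.061, edgeR adjusted p = 0.00318). The interaction was below 0 for all 10 alpha genes and called for 5 of them, psma6l at -1 (SE 0.30, edgeR adjusted p = 0.0193) being the lowest. psma6l was at 17.8, 18.5 and 18.6 CPM in mvp-7dpa and at 15.2, 14.2 and 16.4 CPM in mvp-sham libraries, a difference that was not called in the full data and was without WT-7dpa replicate 1 (0.26, edgeR adjusted p = 0.0202).

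In the beta ring 4 of 7 constitutive genes rose in WT-7dpa, and none was called in either direction in the knockout after injury. psmb3, a structural subunit, was at 34.5, 41.6 and 45.0 CPM in WT-7dpa and at 22.0, 26.1 and 22.1 CPM in WT-sham libraries (log2 fold change 0.79, SE 0.10, edgeR adjusted p = 2.12e-05). psmb2, also structural, was at 37.9, 47.0 and 45.7 CPM in WT-7dpa and at 27.3, 29.9 and 28.4 CPM in WT-sham libraries (log2 fold change 0.61, SE 0.097, edgeR adjusted p = 0.000134). For these 2 genes and psmb1 the interaction was called below 0, at -0.61 for psmb3, -0.66 for psmb2 and -0.34 for psmb1.

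Of the 7 base ATPase genes, whose products unfold substrates, 4 rose and 1 fell in WT-7dpa, with log2 fold changes of no more than 0.35. psmc5 was the one that fell. It was at 79.1, 75.6 and 75.6 CPM in WT-7dpa and at 87.2, 91.9 and 84.3 CPM in WT-sham libraries (log2 fold change -0.19, SE 0.057, edgeR adjusted p = 0.01), and it fell by 0.20 in the knockout (edgeR adjusted p = 0.0216), with an interaction near 0. psmc1 was at 83.8, 79.2 and 86.7 CPM in WT-7dpa and at 67.5, 68.6 and 59.99 CPM in WT-sham libraries (log2 fold change 0.35), and was the only ATPase gene with a called interaction (-0.32, SE 0.098, edgeR adjusted p = 0.0214), joined by psmc3 and psmc4 without WT-7dpa replicate 1.

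Among the 14 other genes of the regulatory particle, 7 rose and 1 fell in WT-7dpa, and 3 fell and none rose in mvp-7dpa. psmd12, a lid subunit, was at 33.3, 41.4 and 41.9 CPM in WT-7dpa and at 27.5, 26.1 and 21.8 CPM in WT-sham libraries, the largest log2 fold change of the particle (0.63, SE 0.10, edgeR adjusted p = 0.000133). psmd4, a ubiquitin receptor, was at 23.5, 25.2 and 23.9 CPM in WT-7dpa and at 27.5, 28.02 and 30.4 CPM in WT-sham libraries (log2 fold change -0.24, edgeR adjusted p = 0.00965), and at 21.3, 22.3 and 21.2 CPM in mvp-7dpa and at 27.4, 29.2 and 29.5 CPM in mvp-sham libraries (log2 fold change -0.41, edgeR adjusted p = 0.00102).

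Both genes with the symbol psmd2, a scaffold subunit of the base, responded in opposite directions in the genotypes. ENSDARG00000099653 was at 76.7, 76.0 and 73.0 CPM in mvp-7dpa and at 87.9, 91.4 and 92.7 CPM in mvp-sham libraries, and at 84.1, 87.4 and 91.0 CPM in WT-7dpa and at 74.0, 75.1 and 75.0 CPM in WT-sham libraries. Replicate 1 of WT-7dpa was close to the others. The log2 fold change was -0.27 in knockout hearts and 0.23 in wild-type hearts, with an interaction of -0.50 (SE 0.081, edgeR adjusted p = 0.000486). ENSDARG00000103190 had log2 fold changes of -0.30 in knockout hearts and 0.16 in wild-type hearts and an interaction of -0.46 (SE 0.080, edgeR adjusted p = 0.000776). Reads of the 2 genes may have been split between them, so they are not independent. The interaction was below 0 for all 14 genes of the particle and called for 4, the others being psmd12 (-0.53) and psmd1 (-0.33).

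**Figure D4:**
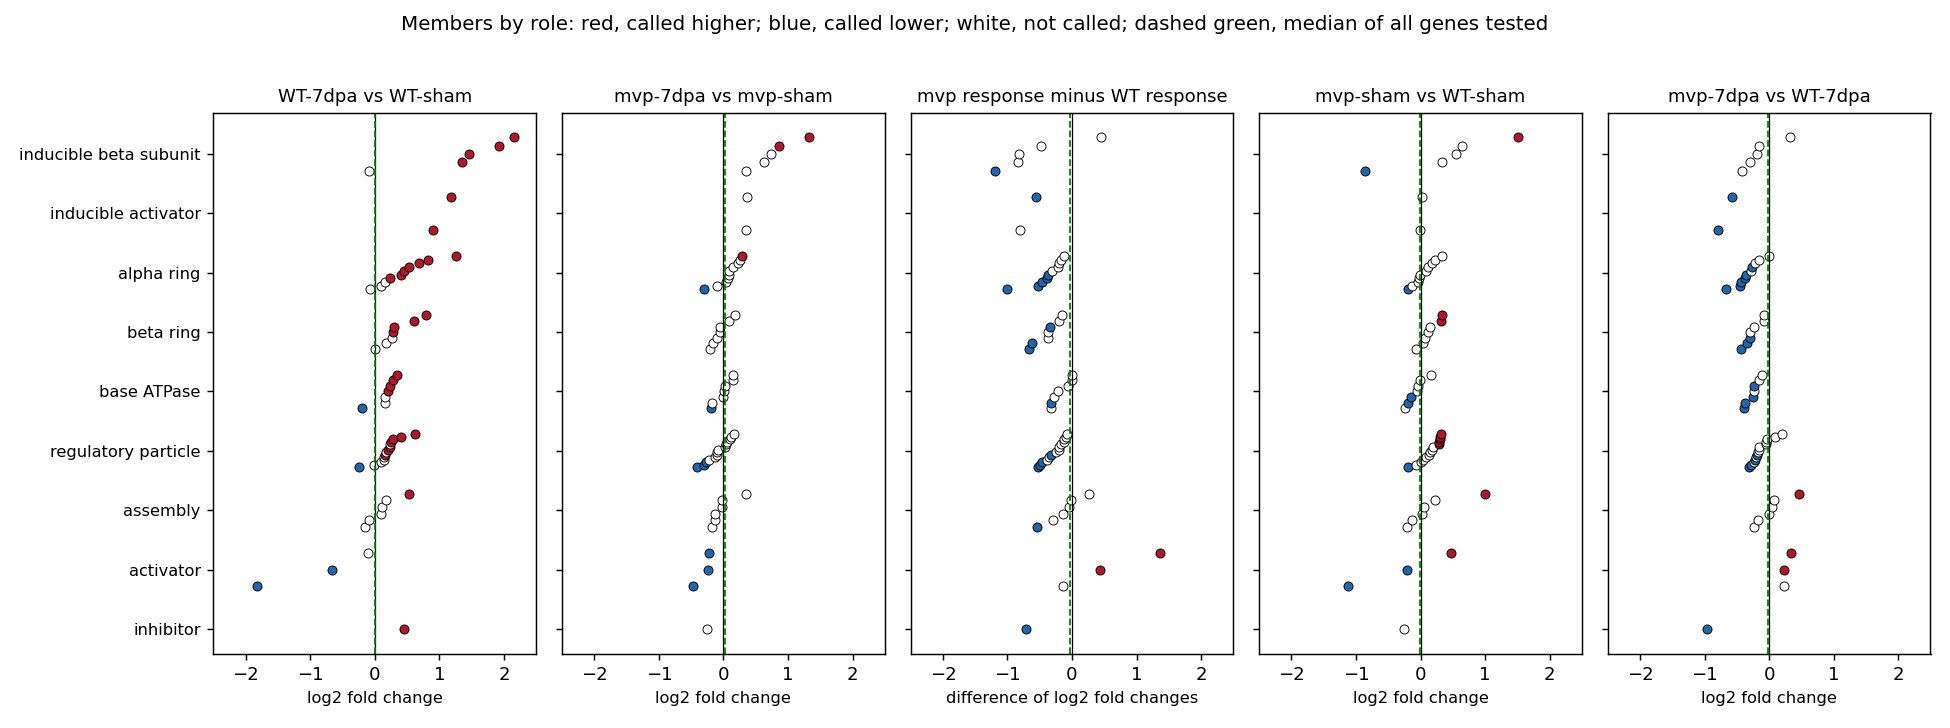
Log2 fold change of each of 55 members by role in the 5 comparisons; red and blue points were called higher and lower, white points were not called, and the dashed line is the median of all 16604 genes tested. In the wild-type most points lie right of 0, up to 2.15 for psmb9a. In the knockout after injury the median of the constitutive members shown is -0.04. The interaction lies left of 0 for all members of the alpha ring, beta ring, base and regulatory particle.

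Both psme4 genes fell after injury in both genotypes. The psme4 gene ENSDARG00000087911, whose human counterpart encodes the single-chain activator PA200, had the lowest log2 fold change of all members in both genotypes. It was at 13.7, 13.9 and 15.9 CPM in WT-7dpa and at 50.8, 49.5 and 53.9 CPM in WT-sham libraries, and fell by 1.82 on the log2 scale (SE 0.083, edgeR adjusted p = 1.88e-09). In the knockout it was at 16.9, 15.9 and 18.2 CPM in mvp-7dpa and at 24.4, 22.6 and 23.5 CPM in mvp-sham libraries, a fall by 0.47 (SE 0.083, edgeR adjusted p = 0.00117). Replicate 1 of WT-7dpa was close to the others for this gene.

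The sham groups set most of that difference between the genotypes. mvp-sham was lower than WT-sham by 1.13 on the log2 scale (SE 0.081, edgeR adjusted p = 1.4e-07), whereas the difference at 7dpa was 0.23 (edgeR adjusted p = 0.0737), and the interaction was 1.36 (SE 0.12, edgeR adjusted p = 1.99e-06). The other psme4 gene, ENSDARG00000018742, was at 41.6, 41.2 and 41.1 CPM in WT-7dpa and at 68.1, 60.6 and 67.4 CPM in WT-sham libraries (log2 fold change -0.66), and at 49.0, 47.4 and 48.9 CPM in mvp-7dpa and at 58.5, 55.2 and 55.9 CPM in mvp-sham libraries (log2 fold change -0.22). Its interaction was 0.44 (SE 0.089, edgeR adjusted p = 0.00216), so the 2 psme4 genes were the only members with a called interaction above 0.

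psme3, which encodes the nuclear activator PA28 gamma, differed mainly by genotype. It was at 82.4, 81.0 and 81.7 CPM in mvp-sham and at 58.1, 60.3 and 57.6 CPM in WT-sham libraries (log2 fold change 0.48, SE 0.061, edgeR adjusted p = 3.03e-05), and at 68.5, 68.0 and 70.3 CPM in mvp-7dpa and at 51.1, 55.3 and 57.9 CPM in WT-7dpa libraries (log2 fold change 0.33, SE 0.061, edgeR adjusted p = 0.00245). The genotypes did not overlap at either state, and the share of all genes without such overlap was not counted. After injury psme3 fell by 0.25 in the knockout (edgeR adjusted p = 0.00979), with an interaction of -0.15 that did not pass (edgeR adjusted p = 0.211) but did without WT-7dpa replicate 1 (-0.21, edgeR adjusted p = 0.0263).

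psmf1, which encodes an inhibitor of the proteasome, was at 18.5, 20.1 and 20.7 CPM in mvp-7dpa and at 26.8, 45.4 and 42.8 CPM in WT-7dpa libraries (log2 fold change -0.96, SE 0.16, edgeR adjusted p = 0.00148). It was at 22.8, 23.4 and 24.7 CPM in mvp-sham and at 27.0, 32.6 and 24.7 CPM in WT-sham libraries, where the difference did not pass (log2 fold change -0.25, edgeR adjusted p = 0.225) but did without WT-7dpa replicate 1 (-0.26, edgeR adjusted p = 0.0095). In WT-7dpa replicate 1 was within the sham range and replicates 2 and 3 were above it, the split seen for the inducible genes. psmf1 rose in the injured wild-type heart (log2 fold change 0.45, SE 0.16, edgeR adjusted p = 0.0298), and its interaction was -0.71 (SE 0.23, edgeR adjusted p = 0.031).

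Among the 6 genes of assembly chaperones, which help to build the complex, psmg3 was the only one called in any comparison of the full data. Without WT-7dpa replicate 1, psmg2 was called in the wild-type after injury, between the injured groups and for the interaction, psmg1 in the knockout after injury and psmd9 between the sham groups. psmg3 was at 10.9, 10.3 and 10.2 CPM in mvp-sham and at 5.21, 5.54 and 4.89 CPM in WT-sham libraries (log2 fold change 1.001, SE 0.13, edgeR adjusted p = 3.43e-05), the highest log2 fold change between the sham groups among constitutive members. It was at 9.81, 9.28 and 11.8 CPM in mvp-7dpa and at 6.53, 7.48 and 8.47 CPM in WT-7dpa libraries (log2 fold change 0.46, SE 0.12, edgeR adjusted p = 0.0206), a call that was lost in a fit of these 2 groups alone (edgeR adjusted p = 0.104) and in 3 of the 12 fits that left out 1 library. psmg3 rose in the wild-type (0.52, edgeR adjusted p = 0.00375) and had a log2 fold change of -0.02 in the knockout.

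**Figure D5:**
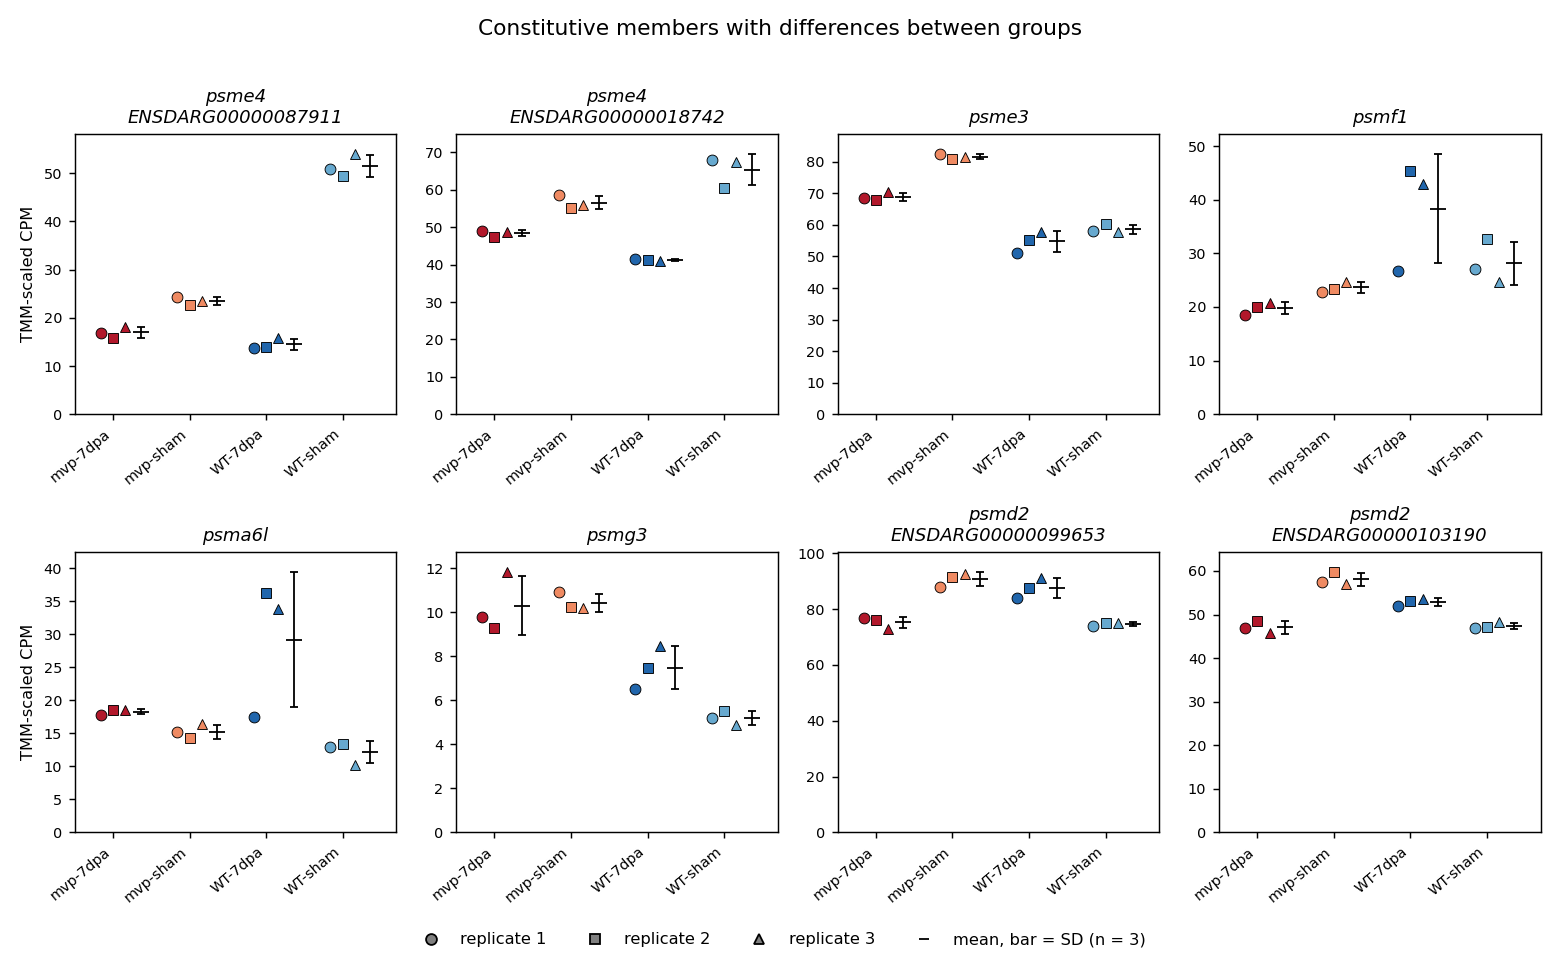
Level of 8 constitutive members in each library in TMM-scaled CPM, by group; symbols are replicates and bars give the mean and SD (n = 3). psme4 ENSDARG00000087911 is highest in WT-sham, at 49.5 to 53.9 CPM, psme3 and psmg3 are higher in both knockout groups than in the wild-type groups, and psmf1 and psma6l are split within WT-7dpa.

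psmc3ip encodes a recombination factor rather than a subunit. It had 17, 16 and 15 counts in mvp-7dpa, 3, 2 and 4 in mvp-sham, 42, 57 and 51 in WT-7dpa and 1, 3 and 1 in WT-sham libraries, so it was at or under the floor of 3 counts in all WT-sham libraries. It was called higher after injury in both genotypes and lower in mvp-7dpa than in WT-7dpa (log2 fold change -1.46, SE 0.27, edgeR adjusted p = 0.0025). psme3ip1, an interactor of Psme3, was not called in any comparison.

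Between the sham groups 10 members (17.5%) were called higher and 7 (12.3%) lower in the knockout, against 25.3% and 24.2% of all genes (49.5% in either direction), both shares being below those of all genes. Besides psmb8a, psme3 and psmg3, the genes called higher were psmb2 and psmb3 of the beta ring and 5 regulatory particle genes, with log2 fold changes of 0.28 to 0.33. Without WT-7dpa replicate 1, 21 members were called higher and 9 lower, where 29.6% of all genes were called in each direction.

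At 7dpa 3 members (5.26%) were called higher and 21 (36.8%) lower in the knockout than in the wild-type, against 8.94% and 10.6% of all genes (19.5% in either direction). The 21 comprised 6 genes of the alpha ring, 3 of the beta ring, 4 base ATPases, 4 of the regulatory particle, psmf1, psmc3ip, psme1 and psme2. The constitutive log2 fold changes had a median of -0.21, against -0.02 for all genes. This count moved with the libraries used for the spread: a fit of only these 2 groups called 6 members lower and a fit without WT-7dpa replicate 1 called 38, where 20.2% of all genes were called lower.

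For the interaction 2 members (3.51%) were called above 0 and 18 (31.6%) below 0, against 15.2% and 19.9% of all genes (35% in either direction). Of the 57 members 52 were below 0, with a median of -0.30, against -0.03 for all genes. The median of all genes was thus itself below 0. Their share below 0 was not counted, so the sign counts here, for the inducible genes and by role have no such share beside them. The count below 0 was 35 without WT-7dpa replicate 1, where 28% of all genes were called below 0, and without WT-sham replicate 3 it was 8. All 4 comparisons of 2 groups share groups with this one, and their values are not independent of it.

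Genes that control the proteasome were counted from a list of 17 names, which matched 18 genes, all tested. In WT-7dpa 6 (33.3%) were called higher and 5 (27.8%) lower than in WT-sham, shares near the 31.6% and 27.8% of all genes. The 6 included the unfoldase gene vcp (log2 fold change 0.53, SE 0.057, edgeR adjusted p = 4.41e-06), and ddi2 (0.62) and ngly1 (0.45), whose products process the factor Nfe2l1 that drives proteasome genes in mammals. The genes of Nfe2l1 itself, nfe2l1 and nfe2l1b, had log2 fold changes of 0.22 and -0.03 and were not called. Those that fell included ecpas and the ubiquitin genes ubc and a pair listed as ubb. In the knockout 2 (11.1%) were called higher and 2 (11.1%) lower after injury, near the 12.9% and 13.4% of all genes. The interaction was called for 4, vcp at -0.66 and uchl5 at -0.41 below 0, ecpas at 1.05 and a ubb gene at 1.09 above 0. These were 11.1% in each direction, below the 19.9% and 15.2% of all genes called below and above 0.

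The list of antigen presentation and interferon-gamma genes held 41 names, of which 37 were matched and 33 tested. In WT-7dpa 20 (60.6%) were called higher and 3 (9.09%) lower than in WT-sham, against 31.6% and 27.8% of all genes, with a median log2 fold change of 0.50. In mvp-7dpa 11 (33.3%) were called higher and none lower than in mvp-sham, against 12.9% and 13.4% of all genes, with a median of 0.17. The tapasin genes beside the psmb cluster rose in both genotypes, tapbp.1 by 1.09 in wild-type and 0.84 in knockout hearts, and tapbp.2 by 0.79 in wild-type and 0.47 in knockout hearts, on the log2 scale. tap2a, beside psmb9a, was at 0.768, 3.91 and 3.12 CPM in WT-7dpa and at 0.537, 0.395 and 0.978 CPM in WT-sham libraries, and had a log2 fold change of 0.11 in the knockout. Between genotypes 7 genes of the list (21.2%) were called higher and 6 (18.2%) lower in mvp-sham than in WT-sham, both below the 25.3% and 24.2% of all genes. In mvp-7dpa 4 (12.1%) were higher and 12 (36.4%) lower than in WT-7dpa, against 8.94% and 10.6% of all genes. The interaction was called above 0 for 4 (12.1%) and below 0 for 9 (27.3%) of them, against 15.2% and 19.9% of all genes.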

How the data were processed

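RNA-seq libraries were made from ventricles with a low-input kit. The authors aligned reads with HISAT2 2.1.0 to GRCz11 and counted them per gene with featureCounts 1.6.0, per the labels and methods, and deposited whole-number counts that are not normalized. The annotation release and the handling of strand and of reads that fit several genes are not given in the sources used here. Symbols came from a table that named 29201 of 32520 genes. psmb8a and psmb9a are listed there as PSMB8 and PSMB9 and were matched through the synonyms of RefSeq's table of GRCz12tu, which was used for names, order and overlaps only.

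In R 4.3.3, genes were filtered with filterByExpr by group and scaled by TMM, and edgeR 4.0.16 fitted a quasi-likelihood model with 1 mean for each group to all 12 libraries, with Benjamini-Hochberg adjustment over 16604 genes and calls at an adjusted p under 0.05. The SE printed beside a log2 fold change is its absolute value divided by the square root of the F statistic of edgeR's test. Ratios used counts within a library, and a pseudocount of 0.5 on the log2 scale. Alternatives were DESeq2 1.42.0, relative log expression scaling, other filters on low counts, fits of only the groups compared, a replicate block, a pseudocount of 5 for the ratios, and leaving out each library. Both models were tested on simulated counts with the same spread in all groups. In the data edgeR's coefficient of variation within a group was 26.6% in WT-7dpa, 7.86% in WT-sham, 4.77% in mvp-sham and 5.22% in mvp-7dpa. The simulation therefore did not test the models at such unequal spread. Floors cover counting error only, since PCR copies cannot be told from separate molecules. The members and the lists were chosen with earlier results of these data known. Named were the inducible members, psmb5, psmb6, psmb7 and, in each comparison, the called constitutive members with the highest and lowest log2 fold change. psmd5, psmd9 and psmd10 were counted with the assembly chaperones, their known role, although the plan placed all psmd genes in the regulatory particle. Sequences of promoters and proteins were not analysed here. Results for some genes of the lists are not reported here.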

Additional observations from a re-analysis of the deposited data

Results flagged for a closer look

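The response to injury differed between the genotypes for 20 of 57 members (35.1%), by the interaction term of the edgeR model (response in the knockout minus response in the wild-type, on the log2 scale). That share was near the 35% of all genes called. Below 0 were 31.6% of members and 19.9% of all genes, and above 0 were 3.51% and 15.2%. The interaction was above 0 for both psme4 genes, ENSDARG00000087911 (1.36) and ENSDARG00000018742 (0.44). It was below 0 for the inducible psmb8a (-1.19) and psme2 (-0.56), for psmc3ip (-2.27), whose value rests on WT-sham libraries with 1, 3 and 1 counts, and for the inhibitor psmf1 (-0.71). In the alpha ring it was below 0 for psma6l (-1), psma2a (-0.53), psma4 (-0.46), psma1 (-0.38) and psma8 (-0.37). In the beta ring it was below 0 for psmb2 (-0.66), psmb3 (-0.61) and psmb1 (-0.34). In the regulatory particle and base it was below 0 for psmd12 (-0.53), psmd2 ENSDARG00000099653 (-0.50), psmd2 ENSDARG00000103190 (-0.46), psmd1 (-0.33) and psmc1 (-0.32), and among the assembly chaperones for psmg3 (-0.54). Of the 12 fits that left out 1 library, the call was lost in 9 for psmg3, in 10 for psmb8a, in 11 for psme2 and in 3 for psmc3ip. It was kept in all 12 for psme4 ENSDARG00000087911. The other flagged genes were not followed singly, and their calls are not known to be stable. Of the 20 calls, 10 were lost without WT-sham replicate 3, and 0 without WT-7dpa replicate 1. The call of psmg3 was also lost with no filter on low counts (edgeR adjusted p = 0.0551). The knockout had lower or higher sham levels than the wild-type for several of these genes. The interaction equals the log2 difference between genotypes at 7dpa minus that between the sham groups. For psme4 ENSDARG00000087911 these were 0.23 and -1.13, for psmb8a 0.32 and 1.51, and for psmg3 0.46 and 1.001. The cause of the sham differences was not tested.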

How the results depend on the processing

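DESeq2 gave 31 members higher and 4 lower in WT-7dpa against WT-sham, the same 35 genes as edgeR, and relative log expression scaling moved no count by more than 1.5 times. Fitting only the groups compared gave 2 lower in the wild-type after injury, 15 higher and 13 lower in the knockout after injury, 17 higher in mvp-sham against WT-sham, and 1 higher and 6 lower in mvp-7dpa against WT-7dpa. It gives no interaction. With no filter on low counts, 2 were lower in the wild-type after injury, 5 lower in the knockout after injury and 2 lower between the sham groups. The cause of these differences was not tested. Leaving out 1 library at a time, the counts ranged from 25 to 39 higher and 4 to 4 lower in the wild-type after injury, from 2 to 12 higher and 6 to 12 lower in the knockout after injury, from 6 to 21 higher and 2 to 9 lower between the sham groups, from 1 to 4 higher and 12 to 38 lower between the injured groups, and from 2 to 2 above 0 and 8 to 35 below 0 for the interaction.

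Values that changed sign were not called in the full data. psmb7 in the wild-type after injury had a log2 fold change of 0.021 with no filter, 0.054 with at least 10 counts in every library and 0.007 with only the groups compared. psmg3 in the knockout after injury was at 0.01 with at least 10 counts in every library, and psme2 between the sham groups at 0.002 with no filter. Leaving out 1 library at a time, psmb10 in the wild-type after injury ranged from -0.266 to 0.211, psmb7 there from -0.066 to 0.057, psmg3 in the knockout after injury from -0.131 to 0.042, psme1 and psme2 between the sham groups from -0.066 to 0.097 and from -0.07 to 0.028, and psmb13a, psmb8a and psmb9a between the injured groups from -0.491 to 0.025, from -0.047 to 0.549 and from -0.548 to 0.073.

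The labels give the groups the same replicate numbers, but same-numbered libraries did not deviate together, with correlations of -0.035 to 0.06, so the numbers are not taken as pairs. With a replicate block the counts were 31 higher and 4 lower in the wild-type after injury, 5 and 8 in the knockout, 10 and 6 between the sham groups, 3 and 19 between the injured groups, and 2 and 19 for the interaction. The block brought psmb8a in the knockout after injury to an adjusted p of 0.0487 in edgeR's test. Depth limits only genes near the floor, such as psmc3ip.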
